A study of Mus musculus with 6 samples.

Results

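The RNA of 7 genes for subunits of the GABA-A receptor was followed in the adult mouse cerebellum after exposure to methylmercury (MeHg) before birth. The genes were Gabra2, Gabra3, Gabra6, Gabrb1, Gabrb2, Gabrg1 and Gabrd, taken by symbol from a table of 56748 genes, and each symbol matched 1 row. The table holds 12 further GABA-A subunit genes. RNA was sequenced from the cerebellum of 6 mice of strain C57BL/6J, all 90 to 120 days old. In the MeHg group (3 mice) the dams drank water with 0.2 ppm of this organic mercury compound, which is toxic to neurons, from the first day of pregnancy until birth. In the Control group (3 mice) the dams drank water with 0 ppm over the same time. The dosing of the dams therefore ended at birth, about 3 months before the tissue was taken. No mercury level of the offspring was used here, so how long their own exposure lasted is not known. Dam and litter are not labelled. The p-values therefore rest on the spread among the 6 animals, and littermates cannot be told from unrelated mice.

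GABA-A receptors are chloride channels that open when GABA binds, and most are built from alpha and beta subunits together with a gamma or a delta subunit. Receptors with a gamma subunit sit largely at synapses and carry fast inhibition, whereas those with the delta subunit lie outside synapses and carry a steady, tonic inhibition. In the cerebellum the alpha6 subunit is made by the abundant granule cells, where it joins with delta in the tonic receptors and with a gamma subunit in synaptic ones. The alpha6 subunit is also known for its insensitivity to classical benzodiazepines. The alpha2 and gamma1 subunits are known from Bergmann glia, and alpha3 from Golgi cells and from monoamine neurons of the brainstem. The C57BL/6J strain carries an intronic deletion that lowers Gabra2 expression in brain, and both groups share this background.

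Total counts were 14487022 to 15975367 in the MeHg libraries and 14116088 to 20303833 in the Control libraries. The labels give 2 females and 1 male per group. However, Control replicate 2, labelled female, had 0.249 CPM of Xist and 87.2 CPM of the Y-linked gene Ddx3y, the pattern of the libraries labelled male. By this expression Control held more males than MeHg, so sex was not balanced between the groups. Where labelled sex is used as a term below, it keeps the female label of this library. CPM values are counts scaled to a common library size after TMM normalisation. The tissue label was checked against markers. All 14 granule cell markers and all 12 Purkinje cell markers were detected. MeHg replicate 2 stood apart in its brainstem and midbrain markers, with a summed level of 317 CPM over 12 genes, against 66.0 and 72.5 CPM in MeHg replicates 1 and 3 and 33.9, 75.5 and 46.0 CPM in Control replicates 1, 2 and 3.

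The sequences just upstream of 3 members are shown because these genes fell together in MeHg. Each is the 250 bases before the start of the canonical transcript in GENCODE vM39 on GRCm39, given 5′ to 3′ on the strand of the gene. Capitals mark the half-site of nuclear factor I, TTGGC on either strand, and the E-box CANNTG. Nuclear factor I proteins are known regulators of Gabra6 in maturing granule cells, and E-boxes are bound by bHLH factors such as NEUROD1.
Gabra6 (chr11:42211911-42212160, minus strand): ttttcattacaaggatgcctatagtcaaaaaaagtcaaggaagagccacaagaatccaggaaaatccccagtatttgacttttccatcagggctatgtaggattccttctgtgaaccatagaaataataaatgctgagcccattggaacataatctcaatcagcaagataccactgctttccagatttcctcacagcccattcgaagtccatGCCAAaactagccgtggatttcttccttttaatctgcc
Gabrb2 (chr11:42310243-42310492, plus strand): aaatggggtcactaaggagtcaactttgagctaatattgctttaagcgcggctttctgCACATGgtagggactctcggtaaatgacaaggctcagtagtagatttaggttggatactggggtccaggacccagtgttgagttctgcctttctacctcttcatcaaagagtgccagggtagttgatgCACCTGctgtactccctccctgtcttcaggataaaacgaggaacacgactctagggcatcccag
Gabrd (chr4:155482585-155482834, minus strand): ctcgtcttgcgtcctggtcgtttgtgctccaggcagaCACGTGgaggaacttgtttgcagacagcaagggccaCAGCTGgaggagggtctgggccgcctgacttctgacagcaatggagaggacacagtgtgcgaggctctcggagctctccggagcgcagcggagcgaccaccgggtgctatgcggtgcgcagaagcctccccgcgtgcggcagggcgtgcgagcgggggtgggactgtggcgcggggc

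The upstream sequence of Gabra6 held 1 nuclear factor I half-site, whose first base lies 38 bases before the start, and 0 E-boxes. The sequences of Gabrb2 and Gabrd held 0 half-sites and 2 E-boxes each, with no overlap between matches. Across 21757 protein-coding promoters of the same length, 43.3% held a half-site and 64.8% an E-box. Among the 7 members 3 held a half-site (Gabra6, Gabrb1 and Gabrg1) and 3 an E-box (Gabrb2, Gabrg1 and Gabrd). The TATA box TATAAA (either strand) and the cyclic AMP response element TGACGTCA were found upstream of 0 members, and in 11.9% and 1.7% of all promoters. Base composition also differed: the GC content was 40.8% for Gabra6, 48.8% for Gabrb2 and 67.2% for Gabrd, with 2, 5 and 22 CG dinucleotides, against a median of 53.2% and 8 over all promoters. None of the 4 motifs was present in this window in all 3 of the genes that fell.

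The RNA of Gabra6, Gabrb2 and Gabrd fell in MeHg, and the other 4 members did not pass the test. The fold changes of Gabra6, Gabrb2 and Gabrd correspond to -33.0%, -37.3% and -25.0% relative to Control. All 7 members passed the filter on low counts. Over all genes, 2.36% of the 16859 tested were called in either direction and 1.79% were called lower in MeHg (edgeR quasi-likelihood test, Benjamini-Hochberg adjusted p under 0.05), against 3 of 7 members. At an unadjusted p under 0.05 the counts were 24.5% of all tested genes and 4 of 7 members, Gabra3 being the fourth. The members had a median log2 fold change of -0.10 and all tested genes one of 0.01. The members were proposed with results of these data in view, so this count is a description.

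The subunit genes lie in clusters, each named here by its chromosome (mm39). Gabra6 spans 42197264 to 42211899 on the minus strand of chromosome 11, and Gabrb2 spans 42310584 to 42519855 on its plus strand. Their starts face away from each other, 98.7 kb apart. Gabrg1, Gabra2 and Gabrb1 lie with Gabra4 in 1398.0 kb of chromosome 5. Gabra3 is X-linked, between Gabre and Gabrq, and Gabrd stands apart on chromosome 4.

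Gabra6 (ENSMUSG00000020428), the alpha subunit of granule cells, had 558, 435 and 491 CPM in MeHg replicates 1, 2 and 3, against 797, 687 and 730 CPM in Control replicates 1, 2 and 3. Every MeHg library lay below every Control library. The fitted log2 fold change was -0.58 ± 0.10 (SE, edgeR adjusted p = 0.0431), and the two-sided exact permutation p was 0.1, the smallest that 3 against 3 allows. The groups did not overlap for 29.4% of all tested genes, and MeHg lay wholly below Control for 15.5%. In bulk tissue, fewer granule cells and less of this RNA per granule cell cannot be told apart.

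Gabrd (ENSMUSG00000029054), the delta subunit that places receptors outside synapses, had 189, 158 and 168 CPM in the MeHg replicates, against 233, 212 and 243 CPM in the Control replicates. The highest MeHg library was again below the lowest Control library. The log2 fold change was -0.41 ± 0.08 (SE, edgeR adjusted p = 0.0433). Across the 6 libraries Gabrd followed Gabra6 closely, with a Pearson r of 0.977 on log2 CPM, given as a description over points that share their libraries.

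Gabrb2 (ENSMUSG00000007653), the main beta subunit of mature receptors, had 142, 170 and 109 CPM in the MeHg replicates, against 246, 212 and 213 CPM in the Control replicates. The groups did not overlap, but the MeHg libraries were more spread than those of Control (140 ± 30.3 CPM and 224 ± 19.4 CPM, SD, n = 3 each). Its log2 fold change of -0.67 ± 0.14 (SE, edgeR adjusted p = 0.0473) was the largest fall of the 7. The order of the MeHg libraries differed from that of Gabra6, since replicate 2 was the highest for Gabrb2 and the lowest for Gabra6.

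**Figure D1:**
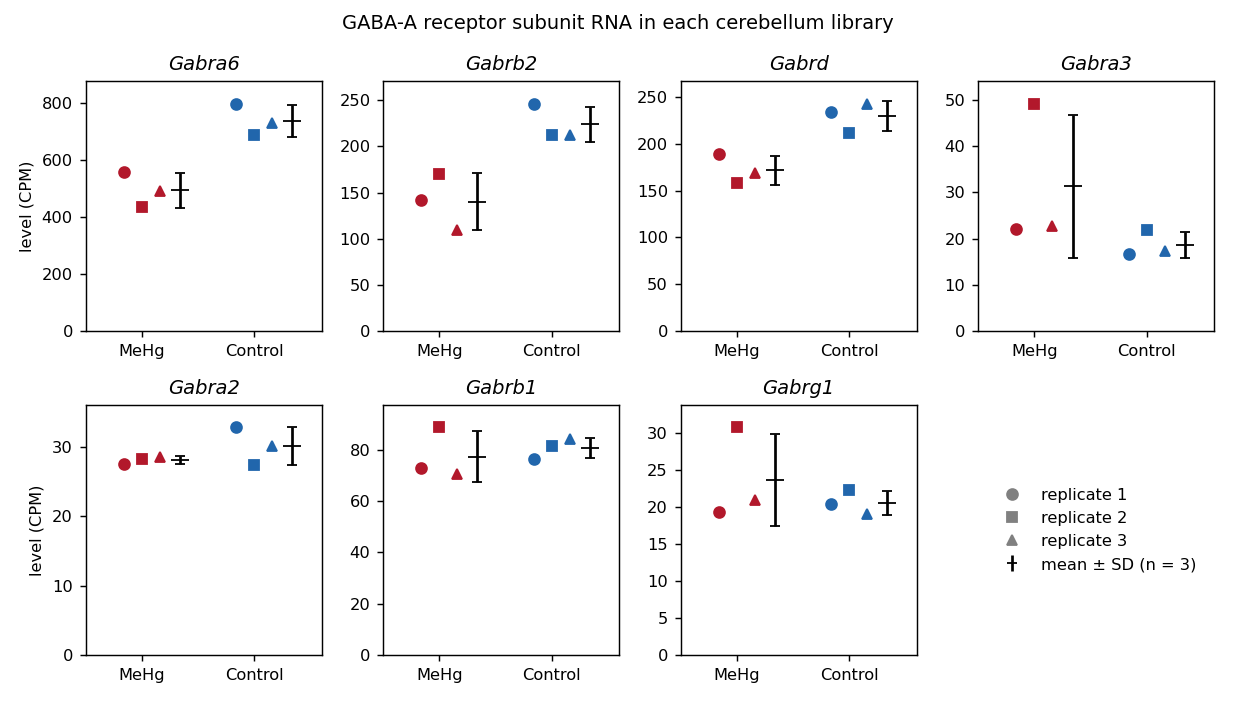
Levels of the 7 member genes in each library, in CPM on axes that start at 0, with MeHg left and Control right; symbols give the replicate number and the bar the mean ± SD (n = 3). Gabra6, Gabrb2 and Gabrd lie lower in all 3 MeHg libraries, and Gabra3 and Gabrg1 are highest in MeHg replicate 2.

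The calls of these 3 genes depended on which libraries were used, while their direction did not. Without Control replicate 1, Control replicate 3, MeHg replicate 1 or MeHg replicate 3, 0 of the 7 members were called by edgeR. Over all genes the same fits called 0, 0, 2 and 0 in turn (3042, 2572, 4003 and 3099 at an unadjusted p under 0.05), so the loss covered nearly all genes. The edgeR adjusted p of the 3 genes was then 0.125 to 0.134, 0.207, 0.0630 to 0.0786 and 0.146 to 0.152 in turn. Without Control replicate 2, whose labelled sex and Xist level differ, 2 were called and Gabrb2 was not (adjusted p = 0.0689), beside 1.29% of all genes tested. Without MeHg replicate 2 the same 3 genes were called, beside 6.33% of all genes tested. The fold changes stayed between -0.67 and -0.48 for Gabra6, between -0.83 and -0.52 for Gabrb2 and between -0.49 and -0.35 for Gabrd. The lowest count among the 3 genes was 1622, of Gabrb2 in MeHg replicate 3.

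Gabra3 (ENSMUSG00000031343), the alpha3 subunit, had 22.0, 49.1 and 22.7 CPM in the MeHg replicates, against 16.6, 21.9 and 17.4 CPM in the Control replicates. MeHg replicate 2 had over 2 times the level of any other library, and MeHg replicate 1 and Control replicate 2 nearly met. The groups did not overlap, as for 13.9% of all tested genes with MeHg higher. The log2 fold change was 0.75 ± 0.29 (SE, edgeR adjusted p = 0.160), and without MeHg replicate 2 it was 0.27 (adjusted p = 0.255). Gabra3 is X-linked, so its levels are also given by sex. The libraries with male Y-linked expression had 49.1, 21.9 and 17.4 CPM and the others 22.0, 22.7 and 16.6 CPM, which overlapped.

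Gabrg1 (ENSMUSG00000001260), the gamma1 subunit, was also highest in MeHg replicate 2. It had 19.3, 30.7 and 20.8 CPM in the MeHg replicates, against 20.4, 22.2 and 18.97 CPM in the Control replicates. The remaining 5 libraries overlapped. Its log2 fold change of 0.20 ± 0.17 (SE, edgeR adjusted p = 0.507) was -0.03 without MeHg replicate 2 (adjusted p = 0.918).

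Gabra2 (ENSMUSG00000000560), the alpha2 subunit, was the steadiest member in MeHg. It had 27.5, 28.3 and 28.5 CPM in the MeHg replicates, all within the range of the 32.8, 27.4 and 30.1 CPM of the Control replicates. The log2 fold change was -0.10 ± 0.09 (SE, edgeR adjusted p = 0.559).

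Gabrb1 (ENSMUSG00000029212), the beta1 subunit, had 72.7, 88.6 and 70.3 CPM in the MeHg replicates and 76.2, 81.2 and 84.0 CPM in the Control replicates. Both the highest and the lowest of these were MeHg libraries. The log2 fold change was -0.06 ± 0.09 (SE, edgeR adjusted p = 0.737), and it was 0.0063 without MeHg replicate 3. In the deposited table the span of Gabrb1 overlaps that of Gabra4 on the opposite strand by 196 bases. The strand handling of the counts is not given, so reads from the overlap cannot be assigned to either gene.

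The 7 genes differ widely in abundance, as seen in FPKM, which is per length and so allows genes to be set side by side. In FPKM, Gabra6 stood at 186 ± 24.0 in MeHg and 279 ± 21.6 in Control (SD, n = 3 each). Gabrd had 55.8 ± 5.25 FPKM in MeHg and 74.9 ± 5.37 FPKM in Control, and Gabrb2 had 20.6 ± 4.30 FPKM in MeHg and 33.0 ± 2.93 FPKM in Control. Far below these, Gabrb1 had 5.21 ± 0.629 FPKM in MeHg and 5.47 ± 0.261 FPKM in Control. Gabra3 had 7.43 ± 3.61 FPKM in MeHg and 4.46 ± 0.674 FPKM in Control. Gabra2 had 3.44 ± 0.0674 FPKM in MeHg and 3.70 ± 0.343 FPKM in Control, and Gabrg1 had 2.80 ± 0.711 FPKM in MeHg and 2.45 ± 0.189 FPKM in Control. The first 3 genes kept their order without overlap in both groups. Among the lower 4, the ranges of Gabra3 and Gabrb1 overlapped in both groups, those of Gabra3 and Gabra2 in Control, and those of Gabra2 and Gabrg1 in MeHg. The 3 most abundant members were the ones that fell.

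The make-up of the subunit RNA is described as shares of the summed FPKM of each class. The shares restate the levels above and are no separate test: where the leading subunits fall, the shares of the others rise by construction. Gabra6 made up 68.7%, 61.6% and 67.8% of alpha subunit RNA in the MeHg replicates, against 74.0%, 70.0% and 72.3% in the Control replicates, a difference of -6.00 percentage points that was -3.78 without MeHg replicate 2. Gabrb2 made up 44.6%, 47.2% and 40.5% of beta subunit RNA in MeHg, against 55.7%, 51.7% and 51.2% in Control, a difference of -8.79. Gabrd made up 67.8%, 61.9% and 65.7% of gamma and delta subunit RNA in MeHg, against 71.4%, 68.2% and 72.7% in Control, a difference of -5.70. In each class the highest MeHg share of this member lay below the lowest Control share.

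The shares of the scarcer members lay higher in MeHg. Gabrb1 held 11.3 ± 0.726% of beta RNA in MeHg and 8.77 ± 0.735% in Control (SD, n = 3 each), although its own level did not pass the test. Gabra2 held 1.23 ± 0.111% of alpha RNA in MeHg and 0.957 ± 0.0436% in Control. Gabra3 held 1.72%, 4.42% and 1.99% in the MeHg replicates and 0.976%, 1.41% and 1.09% in the Control replicates, and its mean difference of 1.55 percentage points was 0.695 without MeHg replicate 2. Gabrg1 overlapped between groups (3.29 ± 0.964% in MeHg and 2.33 ± 0.273% in Control), and its mean difference of 0.967 was 0.425 without MeHg replicate 2.

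**Figure D2:**
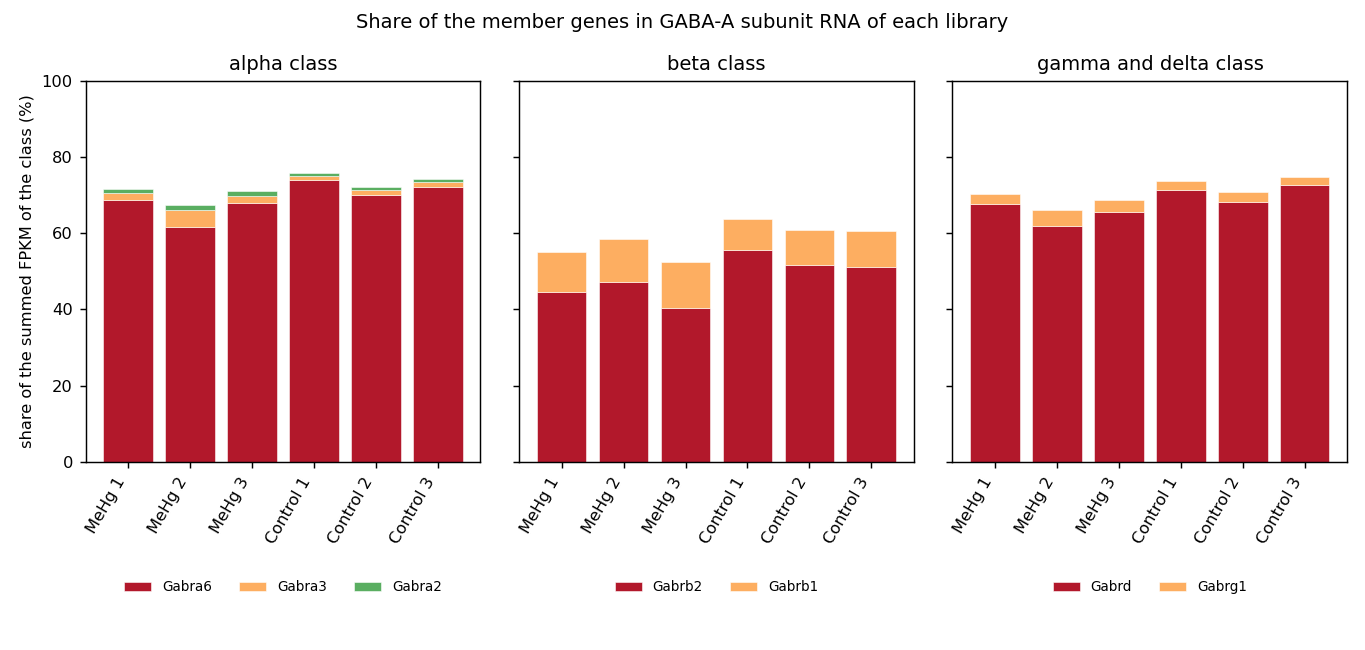
Share of each member gene in the summed FPKM of its subunit class (vertical axis, percent) in each library, MeHg libraries left and Control libraries right; the space above the bars is the rest of the class. The red segments, Gabra6, Gabrb2 and Gabrd, are shorter in every MeHg library than in any Control library, down to 61.6%, 40.5% and 61.9%.

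Gabra6 was 3.41, 3.17 and 3.37 times as abundant as its partner Gabrd in MeHg and 3.95, 3.75 and 3.47 times in Control. The summed FPKM of all 19 subunit genes was 444, 402 and 398 in the MeHg replicates and 581, 533 and 553 in the Control replicates, a change of -25.4% in the mean. Without Gabra6, Gabrb2 and Gabrd the sum over the other 16 genes was 152, 164 and 142 in MeHg and 167, 174 and 167 in Control, a change of -9.85%. In the deposited FPKM neither sum overlapped between groups (two-sided exact permutation p = 0.1 each, the smallest possible). For the other 16 genes the nearest libraries were MeHg replicate 2 at 164.1 and Control replicate 1 at 166.8. The library total behind FPKM exceeded the deposited counts by 8.11% and 3.96% in these libraries, which lowers the MeHg sum more. Scaled to the deposited count totals instead, the sum of MeHg replicate 2 lies above that of Control replicate 1. The lack of overlap for these 16 genes therefore holds only in the deposited FPKM.

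Of the other 12 subunit genes 9 were tested and 0 were called by edgeR (4 negative, median log2 fold change 0.01). At an unadjusted p under 0.05 there were 3, DESeq2 called 2, Gabra5 among them, and limma-voom 0. The scarce subunits had positive values and were highest in MeHg replicate 2. Gabra5, the alpha5 subunit of hippocampal extrasynaptic receptors, had 3.40, 12.6 and 4.25 CPM in the MeHg replicates and 1.67, 3.79 and 2.08 CPM in the Control replicates (1.41 ± 0.51, edgeR adjusted p = 0.140). The theta subunit gene Gabrq had 2.10, 13.0 and 5.19 CPM in MeHg and 1.83, 5.04 and 3.67 CPM in Control (0.94 ± 0.58, adjusted p = 0.356). The epsilon subunit gene Gabre had 0.804, 3.86 and 0.741 CPM in MeHg and 0.507, 0.998 and 0.216 CPM in Control (1.58 ± 0.73, adjusted p = 0.220). Gabrg3, the gamma3 subunit, was at 0.68 ± 0.39 (adjusted p = 0.312). All of these groups overlapped.

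Other tested subunits were closer to 0. Gabra4, the alpha4 partner of delta in thalamus and forebrain, was at -0.19 ± 0.10 (edgeR adjusted p = 0.251), and the retinal rho2 subunit gene Gabrr2 was at 0.01 ± 0.38 (adjusted p = 0.993). The rho1 gene Gabrr1 had at most 7 counts in a library and Gabrp, for the pi subunit, at most 1, and Gabrr3 had 0 in all 6 libraries. These 3 were not tested.

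**Figure D3:**
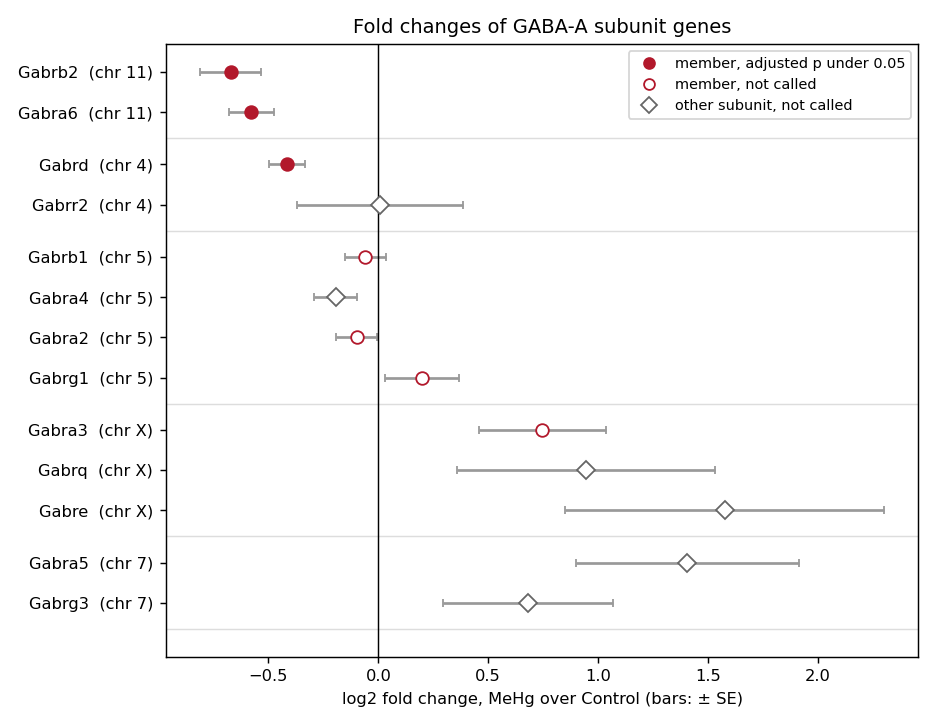
Log2 fold change, MeHg over Control, of the 7 members and other tested subunit genes with SE bars, grouped by chromosome (edgeR). Filled points, Gabrb2, Gabra6 and Gabrd at -0.67, -0.58 and -0.41, have an adjusted p under 0.05; open circles are the other members and open diamonds the other subunits.

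Granule cell markers were lower in the same libraries. In a list of 14 that holds no GABA-A receptor subunit, all 14 fold changes were negative, with a median log2 fold change of -0.32. By edgeR 4 were called lower, beside 1.79% of all tested genes. At an unadjusted edgeR p under 0.05 there were 12, beside 24.5% of all tested genes. DESeq2 called 10 of the list and limma-voom 5. The summed level was 7110, 6199 and 6626 CPM in the MeHg replicates, against 8592, 8564 and 8107 CPM in the Control replicates, and no marker was at 0 in all libraries. Fat2, a giant cadherin of granule cells, was at -0.53 ± 0.08, and the transcription factor gene Etv1 at -0.48 ± 0.08 (adjusted p = 0.0431 each). Over the 6 libraries the mean log2 CPM of the list had a Pearson r of 0.980 with Gabra6, 0.939 with Gabrd and 0.747 with Gabrb2, as a description.

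Set against the mean log2 CPM of these markers, Gabra6 was lower in every MeHg library while Gabrd and Gabrb2 overlapped. The scale depends on which markers are averaged, since their log2 fold changes ran from -0.53 to -0.06, beside -0.58 ± 0.10 (SE) for Gabra6. Gabra6 stood 0.63, 0.49 and 0.55 above the marker mean in the MeHg replicates, against 0.89, 0.70 and 0.84 in the Control replicates. The groups did not overlap, with a difference of -0.25. Gabrd stood at -0.94, -0.96 and -0.99 in MeHg and at -0.88, -1.0 and -0.75 in Control, which overlapped, with a difference of -0.09. Gabrb2 stood at -1.35, -0.86 and -1.61 in MeHg and at -0.80, -0.999 and -0.94 in Control, which also overlapped, with a difference of -0.36. The two-sided exact permutation p was 0.1 for Gabra6, 0.4 for Gabrd and 0.3 for Gabrb2 (0.233, 0.4 and 0.35 after adjustment over the 7 members). The marker mean itself lay 0.33 lower in MeHg, so a gene with an unchanged level rises on this scale by construction. By its own level Gabrg1 overlapped between groups, and the share of all genes without overlap on this scale was not computed. Gabra3 (0.98) and Gabrg1 (0.50) were higher than Control on this scale in all 3 MeHg libraries, and Gabra2 (0.24) and Gabrb1 (0.26) overlapped. Without MeHg replicate 2 the differences were 0.55 for Gabra3, 0.24 for Gabrg1, 0.105 for Gabrb1 and -0.57 for Gabrb2. The Gabrb2 difference was -0.19 without MeHg replicate 3. The Gabrd difference was -0.15 without Control replicate 2 and -0.02 without Control replicate 3. That of Gabra6 lay between -0.31 and -0.21 whichever library was left out.

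Markers of the other cells known to use these subunits were counted in the same way, with 0 called by edgeR in each list. Of 12 Purkinje cell markers 9 were negative (median -0.18), with 4 at an unadjusted p under 0.05, 3 called by DESeq2 and 0 by limma-voom. Of 11 interneuron markers, Golgi cell genes included, 6 were negative (median -0.02), with 1 at an unadjusted p under 0.05 and 0 called by DESeq2 or limma-voom. Of 11 Bergmann glia and astrocyte markers 8 were negative (median -0.14), with 6 at an unadjusted p under 0.05, 2 called by DESeq2 and 0 by limma-voom. The part of these cell types in the levels of Gabra2, Gabra3 and Gabrg1 was not tested.

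Markers of the choroid plexus and of further cell types were read as well. Choroid plexus markers summed to 4426, 2574 and 10245 CPM in the MeHg replicates and 3121, 757 and 146 CPM in the Control replicates (median log2 fold change 1.88, 0 of 10 called by edgeR, DESeq2 or limma-voom, 6 at an unadjusted p under 0.05). The medians were 1.41 for ependymal markers (2 of 7 called higher), 0.33 for oligodendrocyte, 0.27 for microglia and 0.31 for endothelial markers (1 of 7 called higher), and -0.31 for unipolar brush cell markers (1 of 7 called lower). Their part in the members' levels was not tested.

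MeHg replicate 2, where Gabra3, Gabrg1, Gabrb1 and the scarce subunits were highest, also had the highest brainstem and midbrain markers. Of 12 such markers 7 were tested, all 7 were positive and 0 were called by edgeR (median 1.93; 5 at an unadjusted p under 0.05, 1 by DESeq2 and 0 by limma-voom), and none was at 0 in all libraries. The serotonin enzyme gene Tph2 had 0.556, 67.5 and 1.48 CPM in the MeHg replicates and 0.203, 0.948 and 0.503 CPM in the Control replicates. Over the 6 libraries the mean log2 CPM of the list had a Pearson r of 0.965 with Gabra3, 0.968 with Gabrg1 and 0.573 with Gabrb1, with this library far from the other 5. The part of brainstem tissue in these levels was not tested. The oligodendrocyte markers were highest there too, at a sum of 8032 CPM against 5217 to 6446 CPM in the other 5 libraries. Without MeHg replicate 2 the falls of Gabra6, Gabrb2 and Gabrd were called at -0.48, -0.83 and -0.35, with edgeR adjusted p of 0.0181, 0.00793 and 0.0299.

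**Figure D4:**
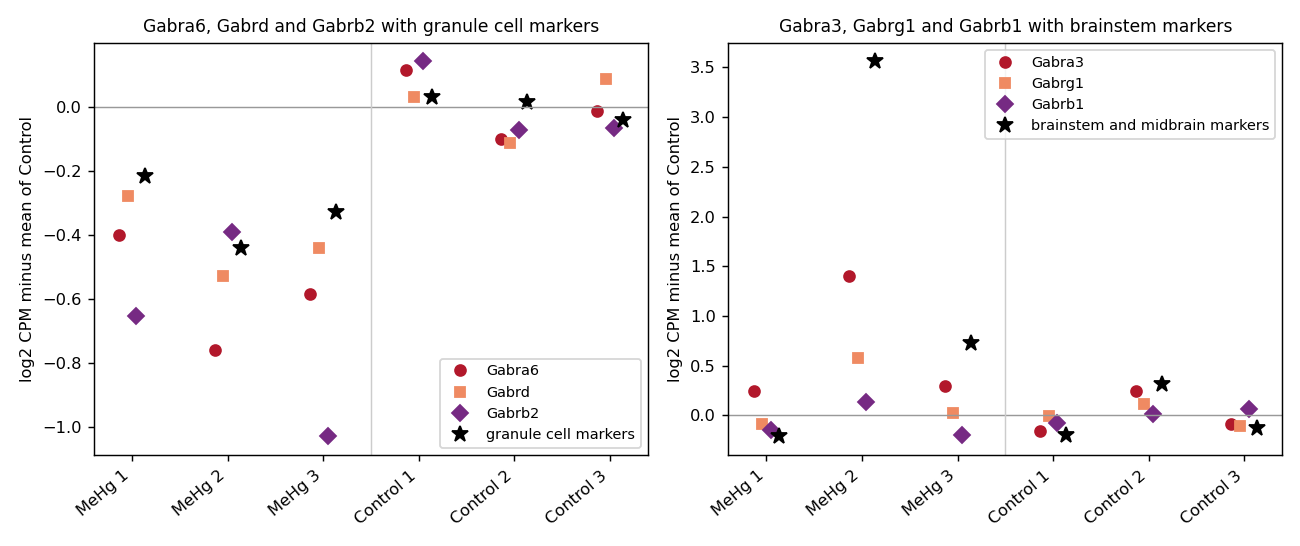
Log2 CPM of members and the mean of a marker list in each library, minus the mean of the Control libraries; left, Gabra6, Gabrd and Gabrb2 with 14 granule cell markers, right, Gabra3, Gabrg1 and Gabrb1 with 12 brainstem and midbrain markers. Gabra6, Gabrd, Gabrb2 and the granule cell marker mean lie below 0 in every MeHg library. Gabra3 stands at 1.40 in MeHg replicate 2, where the brainstem mean stands at 3.56.

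Of 18 genes that anchor, assemble and move GABA-A receptors, 1 was called lower and 0 higher by edgeR, 7 had a negative fold change and the median was 0.06. The called gene was Igsf9b, a cell adhesion protein of inhibitory synapses, with 124, 125 and 113 CPM in the MeHg replicates against 169, 168 and 186 CPM in the Control replicates (-0.53 ± 0.07, edgeR adjusted p = 0.0431). Dmd, for the dystrophin that marks inhibitory synapses on Purkinje cells, was next at -0.30 ± 0.08 (adjusted p = 0.0811). Gphn, the gephyrin scaffold, added for its role after its value was seen, was at -0.17 ± 0.07 (adjusted p = 0.190).

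In the list of chloride balance and neurosteroid synthesis, 0 of 11 genes were called by edgeR and 5 were negative (median 0.08), with 3 at an unadjusted p under 0.05, 3 called by DESeq2 and 0 by limma-voom. Car2, a carbonic anhydrase, was at 0.32 ± 0.07 (edgeR adjusted p = 0.0507). Stk39, the kinase that regulates chloride cotransporters, was at 0.49 ± 0.13 (edgeR adjusted p = 0.0768). For both genes MeHg lay wholly above Control, as for 13.9% of all tested genes. The chloride exporter gene Slc12a5, which sets whether GABA inhibits, was at -0.10 ± 0.07 (adjusted p = 0.438) and was also added after its value was seen. Of 6 GABA-B receptor genes 0 were called by edgeR and 4 were negative (median -0.11), with 2 at an unadjusted p under 0.05, 1 called by DESeq2 and 0 by limma-voom. Among these Kctd12, an auxiliary subunit, had 274, 244 and 236 CPM in the MeHg replicates against 368, 292 and 336 CPM in the Control replicates (-0.40 ± 0.10, adjusted p = 0.0590), and the receptor subunit gene Gabbr2 was at -0.17 ± 0.08 (adjusted p = 0.198).

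The genes whose pattern was most like that of each member were sought among 10245 tested genes with a mean of at least 10 CPM and no Gm or Rik symbol, by Pearson r of log2 CPM over the 6 libraries. For Gabra6 they were Api5, Diras2 and Boc (r of 0.997 each), and for Gabrd Ctr9 (0.999), Baz1b and Arhgef7 (0.997 each). Gabrb2 was most like Spag9, Zfr and Tapt1 (0.996, 0.995 and 0.994). With 6 libraries such values are common: 262, 339 and 253 genes had an r above 0.95 with Gabra6, Gabrd and Gabrb2. Gabra3 was most like Tmem125, Dcun1d4 and Vamp1 (0.997, 0.996 and 0.995), with 200 genes above 0.95. Gabrg1 was most like Zdhhc20, Prkar1b and Rab9b, with 90 genes above 0.95. The patterns of Gabrb1 (Myo6, Vrk1 and Bhlhb9) and Gabra2 (Zfp790, Pdia3 and Drosha) had fewer near matches, 40 and 8 genes.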

How the data were processed

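The 6 cerebellar libraries were read from both ends on a NovaSeq instrument, per the labels' protocols. The submitters' processing notes name mm39 and DESeq2; for the aligner, counter, annotation and strand setting no source used here gives a value. The authors deposited raw counts per gene and FPKM values. FPKM, counts and gene lengths together imply a library total. It exceeded the sum of the deposited counts by 8.11 to 9.03% in MeHg and 3.96 to 5.36% in Control libraries. The excess cancels in shares and in ratios within a library, but not in FPKM levels or their sums.

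Counts were filtered with filterByExpr and scaled by TMM, and MeHg was compared with Control by the quasi-likelihood test of edgeR 4.0.16 in R 4.3.3 over 16859 genes, group as the only term. SE is the absolute log2 fold change divided by the square root of F. Log2 CPM used a prior count of 2. Alternatives used DESeq2 1.42.0, limma 3.58.1, other scalings, filters and terms. The test was checked on simulated data. No 2 libraries of a group were copies (chi-square per degree of freedom 7.85 to 19.9). Named genes are the members, the other subunits, of each pathway list every called gene (up to 5) and the 2 with the smallest p where fewer were called, the first 2 of a marker list where a result turned on them, and the 3 most correlated genes per member. Gphn and Slc12a5 were named after their values were seen. Members and lists were chosen with earlier results of these data known. Some subunit and marker genes are not reported here.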

Additional observations from a re-analysis of the deposited data

How the results depend on the processing

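Fold changes of Gabra2, Gabra3, Gabra6, Gabrb2 and Gabrd kept their sign in all 20 alternatives. With DESeq2 size factors, a minimum of 10 counts, DESeq2 (1380 genes called), limma-voom, labelled sex (609) or no filter (2378) the 3 calls held, and without a filter Gabra3 was also called (0.74). Upper-quartile scaling left 1 member and 197 genes called (78 higher and 119 lower, against 97 and 301), with Gabrb2 at -0.64 and Gabrd at -0.38. A loess offset for gene length left 0 members and 0 genes (3587 at an unadjusted p under 0.05), with Gabra6 at -0.64, Gabrb2 at -0.63, Gabrd at -0.47 and Gabrb1 reversed to 0.092. Limma on log2(FPKM + 1), with or without the FPKM filter, called 0 members and 0 genes (4047 and 4373 unadjusted), with Gabra6 at -0.59, Gabrb2 at -0.67 and Gabrd at -0.42; with 0.1 added it called 0 members and 1 gene, at -0.59, -0.70 and -0.43. The cause of these losses was not tested.

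Leaving out 1 library gave 0 to 3 members and 0 to 1091 genes called. The number of genes was highest without MeHg replicate 2. It was 0 when MeHg replicate 3, Control replicate 1 or Control replicate 3 was left out. Across all fits that left out 1 library, 2572 to 4255 genes had an unadjusted edgeR p under 0.05. Fold changes were then -0.67 to -0.48 for Gabra6, -0.83 to -0.52 for Gabrb2, -0.49 to -0.35 for Gabrd, 0.27 to 0.95 for Gabra3, -0.16 to 0.0063 for Gabrb1 (reversed without MeHg replicate 3), -0.16 to -0.03 for Gabra2 and -0.027 to 0.33 for Gabrg1 (reversed without MeHg replicate 2). Chosen after the data were seen, the Xist level as a term called 1640 genes and 4 members, with Gabra3 at 0.89 and Gabrb1 reversed to 0.0030, and leaving out both libraries numbered 2 called 1723 genes and 3 members. The replicate block called 648 genes and the same 3 members, but replicate numbers did not pair the samples (same-number r of 0.187, 0.346 and -0.236). Shares and marker-relative differences kept their sign in all 7 alternatives each; CPM per length gives the same shares by construction.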
